A study of Mus musculus with 3 samples.

Results

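Type 2 conventional dendritic cells that carry Cd209a were examined in single-cell RNA sequencing of immune cells from the mouse infrarenal aorta. A cell counted as a member when its barcode passed the filters (at least 200 genes detected, and no more than 10% mitochondrial UMIs) and held at least 1 UMI of Cd209a. A UMI, or unique molecular identifier, marks 1 captured RNA molecule. Cd74, H2-Aa and H2-Ab1 together had to reach 100 of every 10000 UMIs, and C1qa, C1qb and C1qc together could not exceed 1 UMI. Another 6 genes, Xcr1, Clec9a, Siglech, Fscn1, Cd79a and Cd3e, had to be at 0 UMIs. This left 132 of 9750 passing barcodes, with 78 of 5286 in AAA_14, 46 of 3229 in AAA_7 and 8 of 1235 in Sham.

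The library AAA_14 came from wild-type mice whose aortas were treated with elastase, which degrades elastic fibres and is used to model abdominal aortic aneurysm. The library titled AAA_7 also came from wild-type mice, but its treatment label gives PBS although its title names an aneurysm, so its treatment is in doubt and it is named here by its title. The library Sham came from wild-type mice that received PBS. The unit of the numbers 7 and 14 and the age, sex and strain of the mice are unstated in the labels read here. A digest with DNase, hyaluronidase and collagenase freed the cells, microbeads against CD45 collected the immune cells, and all aortas of a group (20 for aneurysm, 50 for control) were mixed into 1 library. Each group was therefore 1 library with no replicate, no test between groups was possible, and every difference below is one between libraries. Intervals are 95% intervals that cover counting error only.

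Conventional dendritic cells sample antigen, load peptides onto MHC molecules and show them to T cells. The type 2 lineage presents mainly on MHC class II to helper T cells, is typically marked by Sirpa and Itgam, and shares many genes with dendritic cells that arise from monocytes during inflammation. Cd209a encodes a C-type lectin of the DC-SIGN family, which binds sugars on microbes and host glycoproteins, and is found on both kinds of cell. In an injured arterial wall such cells can present antigen, release cytokines and respond to chemokines.

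Libraries differed in depth and in quality. Members held a median of 12548.5 UMIs and 3201 genes in AAA_14, 5915.5 UMIs and 1657 genes in AAA_7, and 5937.5 UMIs and 1732 genes in Sham. The median mitochondrial share of a member was 4.42% in AAA_14, 0.557% in AAA_7 and 6.68% in Sham, and 12 of 12 mitochondrial genes were higher in AAA_14 than in AAA_7. The part of depth and of mitochondrial share in the differences below was not tested. A few members stood apart: 1 AAA_14 member held 4250 UMIs of the neutrophil genes S100a8 and S100a9, 1 AAA_14 member held 5370 haemoglobin UMIs, and 1 AAA_7 member held 149 UMIs of S100a8 and S100a9. Of the few barcodes shared between pairs of libraries (8, 3 and 1), 0 were members.

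The share of members among passing barcodes was 1.48% in AAA_14 (interval 1.17 to 1.84%), 1.42% in AAA_7 (1.04 to 1.90%) and 0.648% in Sham (0.280 to 1.27%). The intervals of AAA_14 and AAA_7 overlapped almost wholly, and that of Sham overlapped both at its upper end. At least 1 Cd209a UMI, before any other condition, was found in 5.43% of passing AAA_14 barcodes, 2.69% in AAA_7 and 1.54% in Sham. The condition on 6 genes at 0 UMIs removed 71 further barcodes in AAA_14, 6 in AAA_7 and 6 in Sham. In AAA_14, the deeper library, 37 of the 71 held Cd79a, a B cell gene, and 25 held Siglech, a plasmacytoid dendritic cell gene. Without that condition the shares were 2.82% (2.39 to 3.30%) in AAA_14, 1.61% (1.21 to 2.11%) in AAA_7 and 1.13% (0.621 to 1.89%) in Sham, and the intervals of AAA_14 and AAA_7 no longer met. When every barcode was first thinned to 1000 UMIs, the rule gave 1.13% in AAA_14, 0.873% in AAA_7 and 0.572% in Sham, again with overlapping intervals. With a mitochondrial limit of 5% in place of 10%, 48 AAA_14, 46 AAA_7 and 1 Sham members were left. Then the share of Cd209a DCs in AAA_14 was 3.03%, the share of Cd209a DCs in AAA_7 was 1.52% and the share of Cd209a DCs in Sham was 0.735%. With a limit of 20%, 82 AAA_14, 46 AAA_7 and 9 Sham members met the rule, and the AAA_14 share fell below that of AAA_7. The near-equal shares of AAA_14 and AAA_7 thus hold at the limit of 10% and not at 5% or 20%, and their order turned between those limits. The CD45 bead selection can also set these shares.

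**Figure D1:**
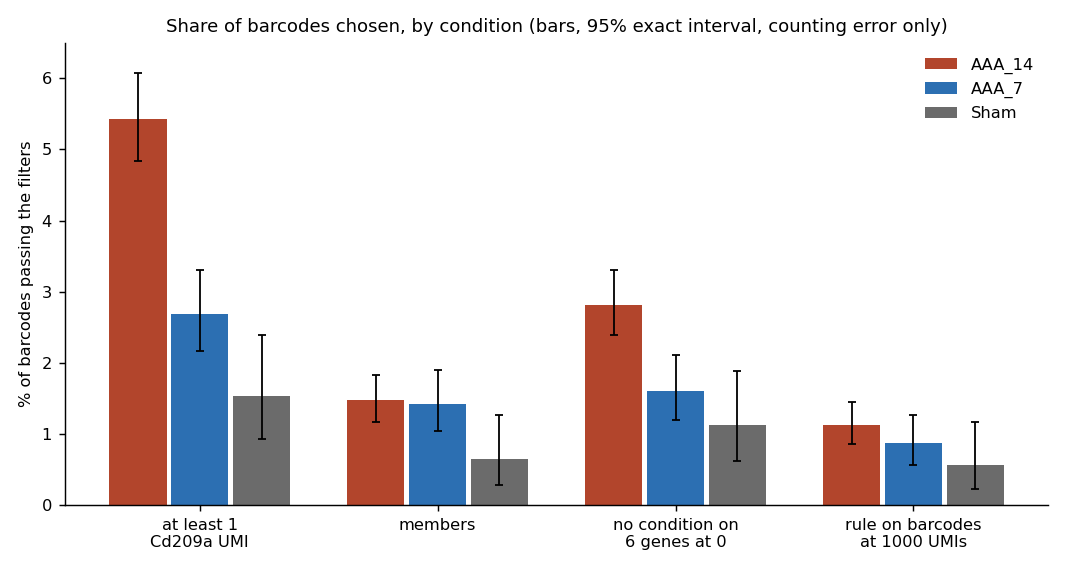
Share of passing barcodes (%, y axis) that held at least 1 Cd209a UMI, that met the full rule, that met it without the condition on 6 genes at 0 UMIs, and that met it after thinning to 1000 UMIs, for AAA_14, AAA_7 and Sham. Bars are shares and error bars 95% exact binomial intervals. AAA_14 (1.48%) and AAA_7 (1.42%) are level under the full rule, at a mitochondrial limit of 10%, and apart (2.82% in AAA_14 and 1.61% in AAA_7) without the 6-gene condition.

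The members were chosen by their Cd209a, class II, C1q and 6-gene UMIs, and these values are given as a description only. Cd209a (ENSMUSG00000031494, chr8:3743397-3748984 of GRCm38 in the GENCODE annotation, minus strand) had a median of 9 UMIs per member in AAA_14, 3 in AAA_7 and 5 in Sham, and the highest member held 86, 26 and 16 UMIs in that order of libraries. On a scale per 10000 UMIs its median was 8.66 in AAA_14, 6.85 in AAA_7 and 9.29 in Sham. Only 1 Cd209a UMI was held by 8 AAA_14 members and 11 AAA_7 members. Among members the lowest class II level per 10000 UMIs was 111 in AAA_14, 105 in AAA_7 and 158 in Sham. Just outside, the highest level among barcodes that met every other condition was 95.6 in AAA_14, 59.4 in AAA_7 and 96.8 in Sham.

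Genes that the rule did not use were read to see whether the members match the label. Klrd1, an NK-type lectin receptor subunit, Ffar2, a receptor for short-chain fatty acids, and Rtn1, a reticulon of the endoplasmic reticulum, mark Cd209a dendritic cells. At least 1 of the 3 was detected in 67 of 78 AAA_14 members, 30 of 46 AAA_7 members and 7 of 8 Sham members. Summed over members, Klrd1 reached 506 CPM in AAA_14, where CPM is the level scaled to a fixed total of summed UMIs, 322 in AAA_7 and 419 in Sham. Cells that met every condition but held no Cd209a had 119 CPM of Klrd1 in AAA_14, 127 in AAA_7 and 295 in Sham, so the members were higher in each library. Ffar2 reached 174 CPM in AAA_14 members, 185 in AAA_7 members and 19.0 in Sham members, the last from 1 UMI. Rtn1 reached 40.7, 29.6 and 38.1 CPM in AAA_14, AAA_7 and Sham members.

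Of 8 genes of the type 2 lineage (Flt3, Zbtb46, Irf4, Itgax, Itgam, Sirpa, Clec10a and Mgl2), at least 3 were detected in 75 of 78 AAA_14 members, 32 of 46 AAA_7 members and 8 of 8 Sham members. Flt3, the growth factor receptor of dendritic cell precursors, had 150.2 CPM in AAA_14, 129.7 in AAA_7 and 114 in Sham members, against 9.10 CPM in AAA_14 monocytes and 5.28 CPM in AAA_14 C1q macrophages, gated in the same library. Zbtb46, a transcription factor of conventional dendritic cells, had 51.3 CPM in AAA_14, 11.1 in AAA_7 (3 UMIs) and 57.1 in Sham members (3 UMIs). Xcr1, Clec9a, Siglech, Fscn1, Cd79a and Cd3e were at 0 by the rule. Of 8 type 1 markers, Xcr1 and Clec9a among them, 6 were detected in AAA_14, 6 in AAA_7 and 3 in Sham members. They summed to 444, 226 and 476 CPM in that order. At least 3 of them were found in 30 of 78 AAA_14, 1 of 46 AAA_7 and 2 of 8 Sham members. Of 6 markers of mature dendritic cells, Fscn1 among them, 4, 3 and 2 were detected in AAA_14, AAA_7 and Sham members, at 233, 419 and 38.1 CPM. The natural killer genes Ncr1, Klrb1c, Nkg7, Gzma, Prf1 and Eomes were at 0 UMIs in AAA_7 and Sham members and summed to 62 UMIs in AAA_14 members.

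The members were mixed for genes shared with monocytes and macrophages. At least 1 UMI of Fcgr1, Ly6c2, Adgre1 or Mertk was found in 52 of 78 AAA_14 members, 25 of 46 AAA_7 members and 1 of 8 Sham members, and at least 2 of the 4 genes in 24, 4 and 0 members of AAA_14, AAA_7 and Sham. This division of the members was chosen after the data had been seen, and the values for members with or without such a gene below are a description. In AAA_14, Fcgr1 was detected in 35 of 78 members, Ly6c2 in 29 and Adgre1 in 19. After thinning to 1000 UMIs, 14.1% of AAA_14 members and 0.371% of AAA_14 B cells held an Fcgr1 UMI. For Adgre1 these shares were 3.85% and 0.890%. Ly6c2, a monocyte surface protein, had 273 CPM in AAA_14, 77.8 in AAA_7 and 0 in Sham members. In gated B cells, 18.7% of AAA_14 cells and 8.01% of AAA_7 cells held a Ly6c2 UMI, at a median of 5019 and 1968 UMIs per cell. Whether B cells express Ly6c2 themselves was not tested. After the same thinning, 15.4% of AAA_14 members and 2.22% of AAA_7 members held a Ly6c2 UMI. Among thinned B cells 6.97% did in AAA_14 and 5.04% in AAA_7. The AAA_7 member share was taken over 45 cells, too few to place it above or below that of B cells. The macrophage gene Mertk was at 0 UMIs in members of all 3 libraries, but other macrophage markers were not. Of 13 such markers, which include the C1q genes limited by the rule, 11 were detected in AAA_14 members, 8 in AAA_7 and 3 in Sham. They summed to 251, 219 and 247 CPM in that order. At least 3 of them were found in 12 of 78 AAA_14, 2 of 46 AAA_7 and 0 of 8 Sham members. Of 9 monocyte markers 9 were detected in AAA_14 members, 8 in AAA_7 members (Ace at 0) and 3 in Sham members. Their summed levels were 2334, 1456 and 476 CPM in that order. At least 3 monocyte markers were found in 35 of 78 AAA_14, 12 of 46 AAA_7 and 0 of 8 Sham members. Of 11 neutrophil markers 11 were detected in AAA_14 members, 8 in AAA_7 members (Ly6g, Ltf and Ngp at 0) and 3 in Sham members, at 5245, 775 and 95.2 CPM. The summed neutrophil UMIs were 5414 in AAA_14 and 209 in AAA_7. Of these the members that stood apart held 4250 in AAA_14 and 149 in AAA_7 from S100a8 and S100a9 alone. The median member had 2.03 neutrophil marker UMIs per 10000 in AAA_14 and 1.73 in AAA_7. In AAA_14 the signal was not confined to 1 member. At least 3 neutrophil markers were found in 19 of 78 AAA_14, 1 of 46 AAA_7 and 0 of 8 Sham members. More than 2 UMIs of S100a8 and S100a9 were held by 23, 3 and 0 members in that order. Of 8 B cell markers 6 were detected in AAA_14 members, 3 in AAA_7 members and 5 in Sham members. Their summed levels were 537, 200.1 and 247 CPM in that order, with Pax5 at 0 in all 3. At least 3 B cell markers were found in 21 of 78 AAA_14, 0 of 46 AAA_7 and 1 of 8 Sham members. The part of these cells in the results below was not tested. Most members thus carried lineage genes of the label, less fully in AAA_7, whose members were shallower than those of AAA_14. In AAA_7, 16 of 46 members held none of Klrd1, Ffar2 and Rtn1 and 0 held all 3. In AAA_14, 11 of 78 held none and 15 held all 3. The AAA_7 member with the fewest of the 8 type 2 lineage genes held 0 of them, and that of AAA_14 held 1. The rule does not separate cells that arise from monocytes.

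Against this background AAA_14 members were compared with AAA_7 members. UMIs were summed over members, 1032205 in AAA_14 and 269839 in AAA_7, and the ratio of CPM was taken on the log2 scale with 0.5 counts added. The Sham sum of 52535 UMIs was too small for ratios, and its levels stand beside the others as values only. Of 4853 genes with at least 30 UMIs in AAA_14 and AAA_7 together, 641 (13.2%) had a level in AAA_14 at least 2-fold higher, and 254 (5.23%) one at least 2-fold lower. These shares are the background for every count below. The median gene had a log2 ratio of 0.18, with quartiles of -0.26 and 0.63. With TMM factors, which moved all ratios by -0.20, 444 genes were higher and 372 lower, so the excess of higher genes depends on the scaling. When 100 UMIs were required over the pair of libraries, 119 genes were higher and 112 lower. Without the 3 members that stood apart, 643 genes were higher and 246 lower, and among members with at most 5% mitochondrial UMIs (48 in AAA_14 and 46 in AAA_7) 412 were higher. Only 58 genes had their whole interval above 2-fold and 91 had it below.

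Genes named next were ranked by the bound of the interval nearest 0, among genes not concentrated in 1 cell or far below another cell type, 15 in each direction. The concentration in 1 cell was limited in the library where the gene was higher. Genes of the lower set held more UMIs in AAA_7, the shallower library, and had narrower intervals.

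Il1b (ENSMUSG00000027398, chr2:129364570-129371139), which encodes the inflammatory cytokine interleukin 1 beta, was far lower in AAA_14. It had 641 CPM in AAA_14 members (interval 593 to 692), 5047 CPM in AAA_7 members (4783 to 5323) and 419 CPM in Sham members, with a log2 ratio of -2.98 (-3.11 to -2.84) for AAA_14 over AAA_7. Per 10000 UMIs, AAA_14 members had a lowest level of 0, a median of 1.63 and a highest of 102, and AAA_7 members had 0, 30.6 and 278. The ranges overlapped, and 7 of 8 Sham members held no Il1b while 1 held 68.6. After thinning each member to 1000 UMIs, 33.3% of AAA_14 members and 75.6% of AAA_7 members held an Il1b UMI, against 8.46% of AAA_14 B cells and 12.997% of AAA_7 B cells, taken as the level from free RNA. The gene was lower in AAA_14 in each of the 8 other gated cell types as well, with a log2 ratio of -2.37 in class II-high cells without Cd209a, -1.39 in neutrophils and -0.76 in B cells.

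Cxcr4, the receptor for the chemokine CXCL12, had 98.8 CPM in AAA_14, 886 in AAA_7 and 171 in Sham members, a log2 ratio of -3.16 (-3.51 to -2.82). Its median per member was 0 in AAA_14, 6.94 per 10000 in AAA_7 and 0.782 in Sham. In thinned members 7.69% of AAA_14 cells and 53.3% of AAA_7 cells held a UMI. B cells express this gene themselves, at 471 CPM in AAA_14 and 801 CPM in AAA_7, with a log2 ratio of -0.77.

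The 3 orphan nuclear receptors of the Nr4a family, immediate early genes induced within minutes to hours of stimulation, were all lower in AAA_14. Nr4a1 had 258 CPM in AAA_14, 1059.9 in AAA_7 and 571 in Sham members, a log2 ratio of -2.04 (-2.29 to -1.79). Nr4a2 had 48.4 CPM in AAA_14, 352 in AAA_7 and 19.0 in Sham (log2 ratio -2.85), and Nr4a3 had 115, 737 and 38.1 CPM in the same order (log2 ratio -2.67). Nr4a3 was found in 9 of 78 AAA_14 members and 34 of 46 AAA_7 members, and 46.2% of its AAA_14 UMIs lay in 1 cell.

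Cdkn1a, the cyclin-dependent kinase inhibitor p21, had 152 CPM in AAA_14, 938 in AAA_7 and 133 in Sham members (log2 ratio -2.62, -2.92 to -2.33). Thinned members held it in 6.41% of AAA_14 and 48.9% of AAA_7 cells, against 1.63% of AAA_14 and 2.92% of AAA_7 B cells. Ptgs2, the inducible cyclooxygenase of prostaglandin synthesis, had 141 CPM in AAA_14 and 1023 in AAA_7 (log2 ratio -2.85), with 51.4% of the AAA_14 UMIs in 1 cell. Tlr2, the sensor of bacterial lipopeptides, had 63.0 CPM in AAA_14 and 311 in AAA_7 (log2 ratio -2.30). Ptafr, the receptor for platelet-activating factor, had a log2 ratio of -2.40, the hypoxia-responsive gene Ndrg1 -3.29, the MAP kinase phosphatase Dusp2 -2.47 and the transcription factor Nfil3 -2.54. Zfp703 (-3.07), Ubald2 (-2.18) and Grasp (-2.33) completed the set, and all 15 remained lower in AAA_14 under each of the alternatives tried.

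The higher set had fewer UMIs behind it. Txnip, which binds and inhibits thioredoxin, had 197 CPM in AAA_14, 40.8 in AAA_7 and 171 in Sham members, from 203 UMIs in the first, 11 in the second and 9 in the last, with a log2 ratio of 2.21 (1.40 to 3.30). Srsf5, a splicing factor, had 388, 137 and 247 CPM in AAA_14, AAA_7 and Sham (1.48, 1.01 to 2.03). Ogt, which attaches N-acetylglucosamine to proteins in the cell, had 155 CPM in AAA_14 and 37.1 in AAA_7 (log2 ratio within 1.15 to 3.15). For several others AAA_7 members held 1 to 3 UMIs: AY036118, a long noncoding RNA, had 111 UMIs in AAA_14 and 1 in AAA_7 (4.28, 2.35 to 10.18), and H1f0, a linker histone, 88 and 2 (3.21, 1.63 to 6.59).

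The noncoding RNA Kcnq1ot1 had 53 UMIs in AAA_14 and 0 in AAA_7. A count of 0 allows up to 11.1 CPM in AAA_7 (3 counts of the total). Against that limit the AAA_14 level was 4.62-fold higher, a value that leaves out the counting error of AAA_14. Kcnq1ot1 runs antisense to Kcnq1. Whether the counting used strand is not given in the sources used here, so the pair cannot be told apart. Acsl5 and Scarb1, which activate fatty acids and take up lipoprotein cholesterol, had log2 ratios of 3.42 and 3.35 from 61 and 58 UMIs in AAA_14 and 1 UMI each in AAA_7. The DNA helicase-nuclease Dna2 (2.61), the ETS factor Elf4 (2.51), Asnsd1 (2.48) and Tifab (2.14) had 3 to 6 UMIs in AAA_7. The interferon-responsive genes Ifi47 (2.13), Ifit2 (2.30) and Phf11a (2.44) made up the rest. Ifit2 was the one named gene that changed direction under an alternative, to -0.79 in members thinned to 1000 UMIs.

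**Figure D2:**
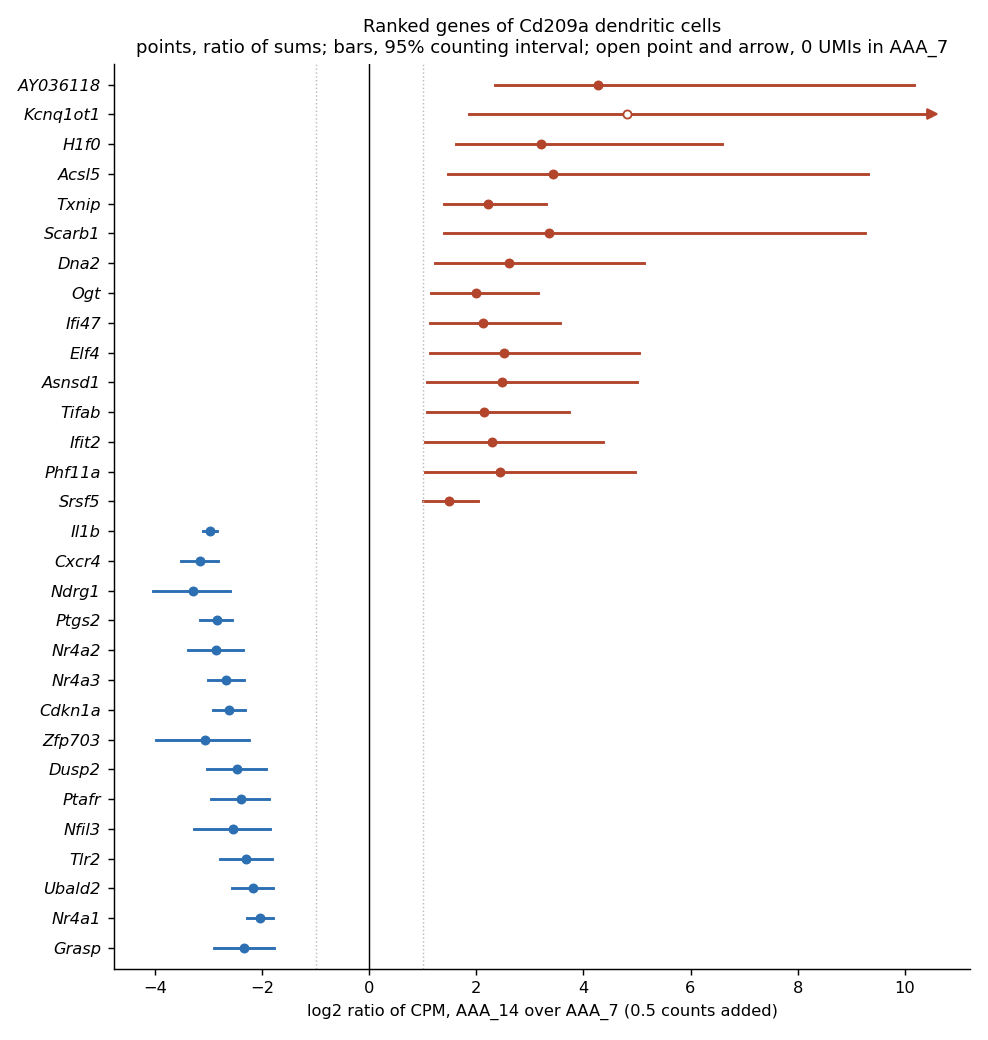
Log2 ratio of CPM in AAA_14 over AAA_7 members (x axis) for the 15 ranked higher genes (red) and the 15 ranked lower genes (blue). Points are ratios of summed counts and bars 95% counting intervals; Kcnq1ot1, at 0 UMIs in AAA_7, is drawn open with an arrow, and its point depends on the 0.5 counts added. Intervals of the lower genes are the narrower ones, as for Il1b (-3.11 to -2.84).

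Of 21 cytokine genes 9 were measured, 5 were at least 2-fold lower in AAA_14 and 1 higher. Their median log2 ratio was -2.56 (-2.98 to 0.32 over genes). Beside Il1b, the lower ones were Tnf (18.4 CPM in AAA_14 and 129.7 in AAA_7), Osm, an interleukin 6 family cytokine (40.7 and 282 CPM), the interleukin 1 receptor antagonist Il1rn (12.6 and 107 CPM) and the decoy receptor Il1r2 (80.4 and 474 CPM), each in AAA_14 and AAA_7 in that order. Il1b, its antagonist and its decoy receptor were thus lower together. The part of free RNA in the lower genes other than Il1b was not tested. Tgfb1 was nearly level (163 CPM in AAA_14 and 178 in AAA_7). Il12b, a subunit of interleukin 12, had 47 UMIs in AAA_14, every one of them in 1 of 78 members, and 0 in AAA_7. Set at 4.10-fold higher, its AAA_14 level over a limit of 3 counts in AAA_7, Il12b leaves the list's median as it is.

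Chemokine genes had a median log2 ratio of -0.66 over 10 of 19 genes, with 4 at least 2-fold lower and 1 higher. Ccl4, a chemokine of macrophages and lymphocytes, had 520.2 CPM in AAA_14, 1997 in AAA_7 and 171 in Sham members (-1.94, -2.12 to -1.77). Cxcl2, which attracts neutrophils, had 61.0 CPM in AAA_14 and 663 in AAA_7 (-3.43, -3.88 to -3.02), with 41.3% of the AAA_7 UMIs in 1 cell. Cxcl16 had a log2 ratio of -1.88 and Cxcl10 one of -1.83, with 73.0% of the AAA_7 UMIs of Cxcl10 in 1 cell. Ccl6 (-0.20) and Ccl9 (0.12) lay near the median of all genes.

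Receptors for chemoattractants and lipids had a median of -0.84 over 14 of 24 genes, with 6 at least 2-fold lower and 2 higher. Ccr2, the receptor that draws monocytes and their progeny to CCL2, went the other way from Cxcr4. It had 806 CPM in AAA_14 (interval 752 to 863), 329.8 in AAA_7 (265 to 406) and 552 in Sham members, a log2 ratio of 1.28 (0.97 to 1.62). Per 10000 UMIs its median member had 6.33 in AAA_14, 1.77 in AAA_7 and 5.38 in Sham, so AAA_7 was the low library. Thinned members held it in 50.0% of AAA_14 and 28.9% of AAA_7 cells, against 2.003% of AAA_14 and 1.59% of AAA_7 B cells. Within AAA_14 it was 9.50 per 10000 in members with a monocyte or macrophage gene and 4.49 in members without one, at median depths of 12734.5 and 11494 UMIs, while in AAA_7 the same split gave 1.69 and 2.34. Cx3cr1, the fractalkine receptor, had 62.0 CPM in AAA_14 and 25.9 in AAA_7 (1.17, 0.13 to 2.63). Ccr7, which guides dendritic cells to lymph nodes, had 150.2 CPM in AAA_14 and 334 in AAA_7 (-1.15), with 51.0% of the AAA_14 UMIs in 1 cell. Gpr183, a receptor for oxysterols that positions type 2 dendritic cells, had 52.3 CPM in AAA_14, 159 in AAA_7 and 152 in Sham members (-1.61, -2.21 to -0.99).

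**Figure D3:**
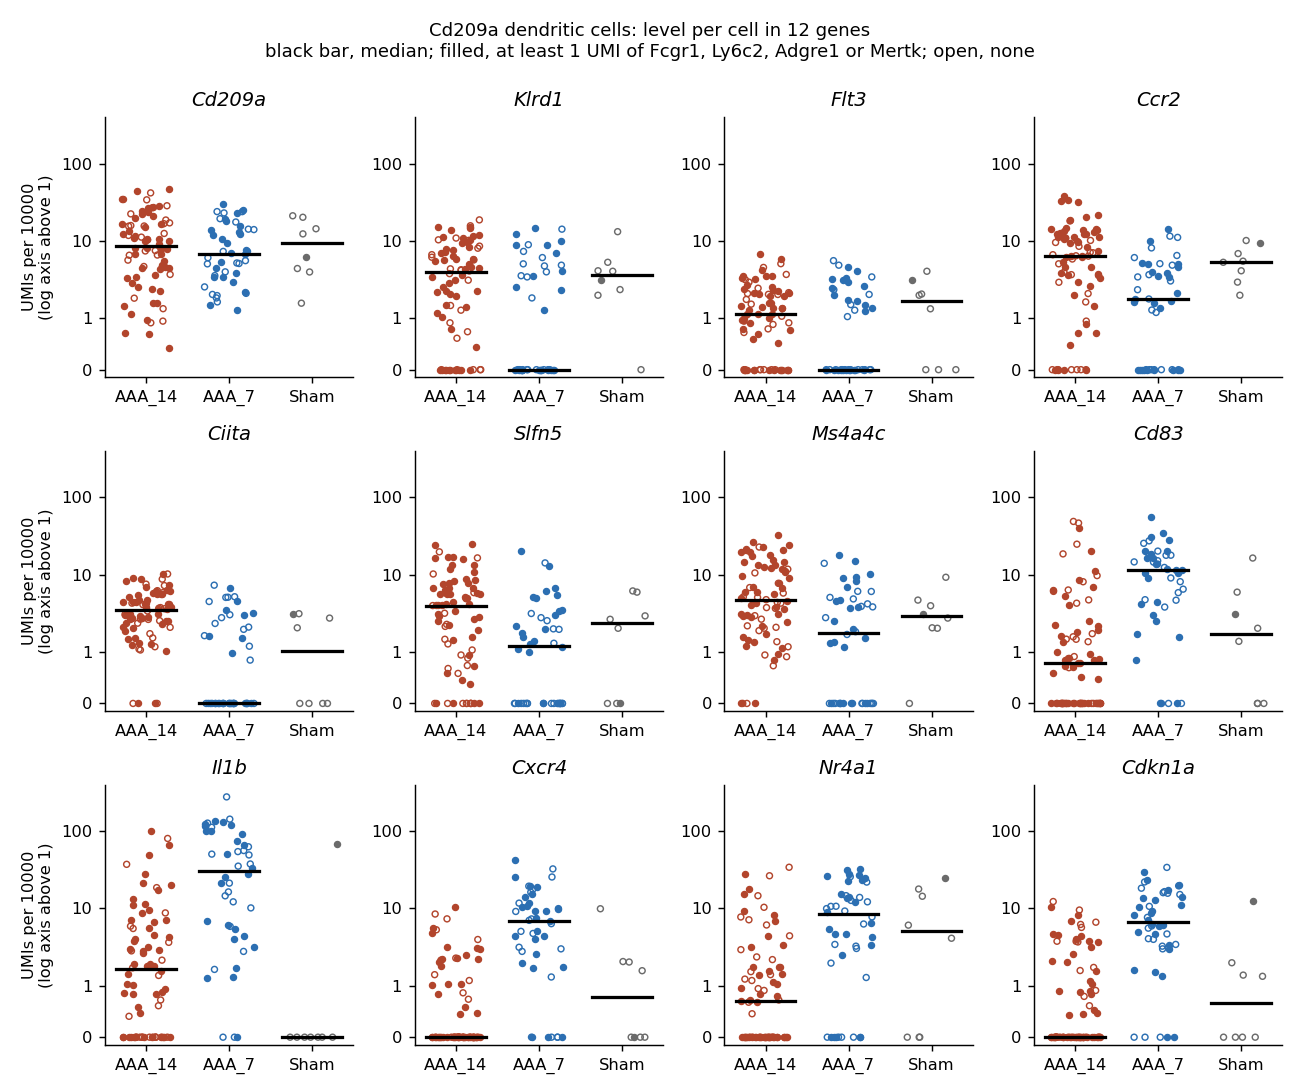
Level of 12 genes in each member (UMIs per 10000, log axis above 1 and linear below) in AAA_14, AAA_7 and Sham. Each point is 1 cell, filled when at least 1 of 4 monocyte or macrophage genes was detected, and black bars are medians. Il1b, Cxcr4, Nr4a1, Cdkn1a and Cd83 lie higher in AAA_7, with an Il1b median of 1.63 in AAA_14 and 30.6 in AAA_7, and Ccr2 and Ciita lie higher in AAA_14, with a Ccr2 median of 6.33 in AAA_14 and 1.77 in AAA_7.

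Over 12 of 13 measured genes of the class II pathway the median log2 ratio was 0.27, close to that of all genes, with 1 gene at least 2-fold higher and 1 lower. H2-Eb1, a class II chain, had 9036 CPM in AAA_14, 8661 in AAA_7 and 6129 in Sham members (0.06). The higher gene was Ciita, the master activator of class II transcription, with 371 CPM in AAA_14, 152 in AAA_7 and 152 in Sham (1.27, 0.82 to 1.79). Thinned members held a Ciita UMI in 29.5% of AAA_14 and 13.3% of AAA_7 cells, intervals that overlapped (19.7 to 40.9% and 5.05 to 26.8%), and B cells, which also express it, in 17.9 and 20.4% of cells. The lower gene was Lgmn, a lysosomal endopeptidase (111 CPM in AAA_14 and 263 in AAA_7, -1.24). In the class I pathway the median was 0.45 over 18 genes, with 2 higher and 0 lower: the peptide transporter subunit Tap1 (253 CPM in AAA_14 and 119 in AAA_7, 1.07) and the class I activator Nlrc5 (56 UMIs in AAA_14 and 3 in AAA_7, 2.08, 0.67 to 4.61).

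Costimulation split by gene. Over 12 of 18 genes the median was 0.04, with 4 at least 2-fold lower and 0 higher. Cd83, a surface glycoprotein of activated dendritic cells, had 348 CPM in AAA_14, 1245 in AAA_7 and 266 in Sham members (-1.84, -2.06 to -1.62). Tnfsf9, the 4-1BB ligand, had 228 CPM in AAA_14, 830.1 in AAA_7 and 457 in Sham (-1.87, -2.14 to -1.60). Cd274, the PD-1 ligand (-1.04, -1.91 to -0.08), and Havcr2 (-2.31, -3.49 to -1.19) were lower on 13 to 32 UMIs a library. The classical ligands Cd86 (107 CPM in AAA_14 and 137 in AAA_7, -0.38, -0.91 to 0.21) and Cd40 (0.59, -0.19 to 1.56) had intervals that held 0. Of 22 genes of maturation and migration 15 were measured, with a median of -0.60 (-1.45 to 0.03 under the alternatives), 4 lower and 1 higher. The lower ones beside Ccr7 were Samsn1 (-1.40), Gadd45b (-1.39) and Marcksl1 (-1.29).

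Of 14 measured NF-kB targets and inflammatory enzymes 6 were at least 2-fold lower in AAA_14, 8 stayed within 2-fold and 0 were higher, with a median of -0.79. Nfkbia, the inhibitor that NF-kB induces against itself, had 508 CPM in AAA_14, 2312 in AAA_7 and 819 in Sham members (-2.19, -2.36 to -2.02). The subunit Rel (-1.77) and the regulator Nfkbiz (-1.72) were lower, and the subunit Nfkb1 (-0.42) and Relb (0.34) stayed within 2-fold. The list's median was below 0 in every other gated cell type compared as well, so the direction was not particular to the members. It was -2.25 in neutrophils, -1.66 in monocytes, -1.31 in class II-high cells without Cd209a and -1.25 in T cells. B cells had -0.75, mature dendritic cells -0.45, type 1 dendritic cells -0.30 and C1q macrophages -0.27.

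Immediate early and dissociation genes had a median of -0.58 over 24 of 25 genes (interval over genes -0.77 to -0.29), with 5 at least 2-fold lower and 1 higher, and -0.11 when levels were averaged over cells. This list holds genes that tissue digestion is known to induce. The heat shock genes Hspa1a (842 CPM in AAA_14, 2453 in AAA_7 and 1199 in Sham) and Hspa1b (972, 3217 and 1523) were lower, while Fos (-0.29) and Fosb (0.08) were near level and Jun was 0.68. Klf2, a transcription factor of quiescent cells, was the higher one (171 CPM in AAA_14, 70.4 in AAA_7 and 228 in Sham, 1.24). The same list was lower in AAA_14 in 7 of the 8 other gated cell types, from -0.84 in class II-high cells without Cd209a to -0.16 in type 1 dendritic cells, and higher only in C1q macrophages (0.42). The part of digestion in these differences was not tested.

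Hypoxia and glycolysis genes had a median of -0.53 over 21 of 26 genes (interval over genes -1.02 to -0.31). Of them 6 were at least 2-fold lower and 0 higher. The 21 genes ran from -4.84 to 0.14. Vegfa, the endothelial growth factor, had 6 UMIs in AAA_14 and 48 in AAA_7 (-4.84, -6.45 to -3.71), the lactate exporter Slc16a3 18 and 46 (-3.27, -4.16 to -2.47), and hexokinase Hk2 52 and 46 (-1.76, -2.36 to -1.15). Of the glycolytic enzymes, Gpi1 (221 CPM in AAA_14 and 326 in AAA_7, -0.57, -0.92 to -0.19) and Ldha (264 and 352 CPM, -0.42, -0.76 to -0.07) had intervals below 0, while those of Gapdh (856 and 919 CPM, -0.10) and Eno1, the highest of the list (0.14), held 0. In members without a monocyte or macrophage gene, 26 in AAA_14 and 21 in AAA_7, the list's median was -0.26. Fth1, the heavy chain of the iron store ferritin, had 3739.6 CPM in AAA_14, 9369 in AAA_7 and 2684 in Sham (-1.33), while the light chain Ftl1 had 1629.5, 1679 and 552 (-0.04).

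Interferon-stimulated genes went the other way. Over 24 of 26 genes of the type I list the median log2 ratio was 0.72 (interval over genes 0.30 to 1.10). At least 2-fold higher were 10 genes (41.7%), where 13.2% of all genes were, and 1 was at least 2-fold lower. Ifit1, an RNA-binding antiviral protein, had 110.4 CPM in AAA_14, 29.6 in AAA_7 and 0 in Sham members, from 114, 8 and 0 UMIs (1.82, 0.87 to 3.14). Slfn5 had 515 CPM in AAA_14, 219 in AAA_7 and 209 in Sham members (1.23, 0.85 to 1.65). Usp18, which removes ISG15 from proteins, had a log2 ratio of 1.27, and the RNA-sensing synthetase Oas1a one of 1.02. Isg15 itself went against the list, with 118 CPM in AAA_14, 348 in AAA_7 and 114 in Sham (-1.56, -1.96 to -1.16), and Rsad2 was -0.39 (-1.04 to 0.35).

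The direction of the interferon list did not hold in every subset. In members without a monocyte or macrophage gene its median was -0.11, and in members thinned to 1000 UMIs it was 0.26. Slfn5 had a median of 5.07 per 10000 UMIs in AAA_14 members with such a gene and 1.00 in those without, against 1.76 and 0 in AAA_7. Ifit2 had 109.5 CPM in AAA_14 members with such a gene and 13.3 CPM in those without. The list was also higher in AAA_14 in B cells (median 0.80) and in class II-high cells without Cd209a (0.66), and lower in type 1 dendritic cells (-0.26). Of 16 interferon gamma-induced genes 8 were measured, with a median of 0.88, 4 higher and 1 lower. The immunity-related GTPases Irgm1 (1.25, 0.28 to 2.59) and Igtp (2.28, 0.65 to 5.68) were among the higher ones, and Gbp2 (-1.16, -1.94 to -0.32) was the lower one.

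Promoters of the type I list were searched for the interferon-stimulated response element, taken as 2 copies of TTTC with any 2 bases between them on either strand, in the 250 bases before the start (RefSeq, GRCm38.p6). It was found in 11 of 18 matched genes (61.1%), against 936 of 27025 genes of the table (3.46%). Genes with the element stood on both sides: Ifit1 (1.82) and Phf11b (1.06) were higher in AAA_14, Bst2 (0.19) was near level and Isg15 (-1.56) was lower. Their 150 bases before the start (chr19:34640739-34640888, plus strand, for Ifit1; chr14:59341331-59341480, minus strand, for Phf11b; chr8:71537473-71537622, minus strand, for Bst2; chr4:156200819-156200968, minus strand, for Isg15) are shown because the same letters accompany opposite differences; capitals mark the element, and overlapping matches run together.
Ifit1: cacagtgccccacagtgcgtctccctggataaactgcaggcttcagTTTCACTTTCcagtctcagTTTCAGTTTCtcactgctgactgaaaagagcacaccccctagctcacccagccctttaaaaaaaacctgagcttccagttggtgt
Phf11b: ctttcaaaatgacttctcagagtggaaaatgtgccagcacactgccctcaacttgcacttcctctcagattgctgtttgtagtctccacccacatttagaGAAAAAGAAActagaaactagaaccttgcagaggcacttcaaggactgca
Bst2: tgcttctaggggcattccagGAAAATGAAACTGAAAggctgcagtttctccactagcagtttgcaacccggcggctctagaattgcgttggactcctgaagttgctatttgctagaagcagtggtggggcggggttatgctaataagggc
Isg15: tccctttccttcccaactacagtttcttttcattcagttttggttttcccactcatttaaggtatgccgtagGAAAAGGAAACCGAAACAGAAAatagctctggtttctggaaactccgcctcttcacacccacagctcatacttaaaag
Ifit1 held the element at -104 and -85 bases from the start, Phf11b at -50, Bst2 at -130 and -124, and Isg15 had 3 overlapping matches, the first at -78. Of the ranked genes, 1 of 13 matched higher genes held it (Phf11a) and 0 of 13 lower genes. The cyclic AMP response element TGACGTCA, found in 1.77% of genes, was in 0 of 13 of either set. A match describes letters in this window and not a bound site.

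**Figure D4:**
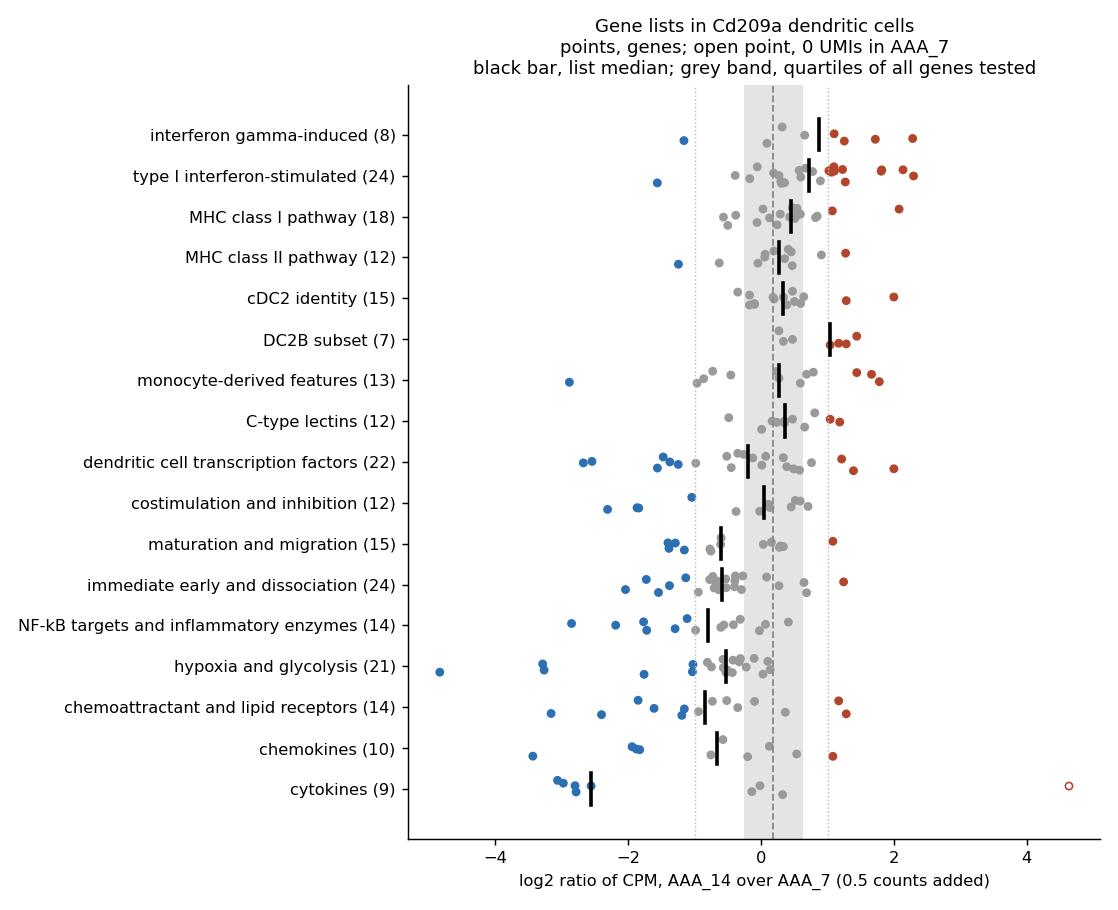
Log2 ratio of CPM in AAA_14 over AAA_7 members (x axis) for each measured gene of 17 lists (number measured in brackets). Red points are at least 2-fold higher and blue points at least 2-fold lower, open points have 0 UMIs in AAA_7, black bars are list medians, and the grey band holds the quartiles of all 4853 genes (-0.26 to 0.63). Cytokines (-2.56) lie farthest to the left, and the interferon lists (0.88 and 0.72) lie on the right with the DC2B genes (1.04).

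The cDC2 identity list had a median of 0.34 over 15 genes, with 2 at least 2-fold higher (Ccr2 and Zbtb46) and 0 lower. Clec10a, a lectin for galactose-type sugars, had 547 CPM in AAA_14, 393 in AAA_7 and 305 in Sham members (0.47), Sirpa 309, 329.8 and 38.1 CPM (-0.10), and Itgam 228, 256 and 228 CPM (-0.17). Genes that mark the DC2B subset, which shares genes with monocytes, had a median of 1.04 over 7 of 9 genes with 4 higher and 0 lower, and 0.33 in members without a monocyte or macrophage gene. Lyz2, the lysozyme of myeloid cells, was one of them (1754 CPM in AAA_14, 645 in AAA_7 and 399.7 in Sham, 1.44). In members with a monocyte or macrophage gene Lyz2 had 2293 CPM in AAA_14 and 558 in AAA_7, and in members without one 451 CPM in AAA_14 and 766 in AAA_7, so its direction turned. AAA_14 neutrophils held 5059 CPM and AAA_14 monocytes 14351 CPM of Lyz2, and thinned B cells held a UMI in 11.6% of AAA_14 and 14.6% of AAA_7 cells. Thinned members held one in 34.6% of AAA_14 and 37.8% of AAA_7 cells, which goes against the order of the CPM, and the part of free RNA was not tested. Of the DC2A subset only Notch2 (-0.45) and Areg (-2.56) were measured.

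Of 22 dendritic cell transcription factors, 6 were lower in AAA_14 by at least 2-fold and 3 higher. Bcl11a (169.5 CPM in AAA_14, 63.0 in AAA_7 and 228 in Sham, 1.39) and Batf3 (1.21, 0.18 to 2.67) were higher with Zbtb46, and Klf4 (156, 459.5 and 209 CPM, -1.56), Runx3 (-1.47), Cebpb (-1.37) and Bhlhe40 (-1.25) were lower with Nr4a3 and Nfil3. Spi1, the myeloid factor PU.1 (-0.13), Zeb2 (0.07) and Irf4, on which the type 2 lineage depends (-0.35, -1.37 to 0.89), stayed within 2-fold. Other C-type lectins had a median of 0.36 over 12 of 21 genes, with Clec12a (1.04) and Clec2i (1.18) at least 2-fold higher and 0 lower, and -0.50 in members thinned to 1000 UMIs. Among pattern receptors Clec4e, a sensor of dead cells and mycobacteria, had 16 UMIs in AAA_14 and 66 in AAA_7 (-3.95, -4.87 to -3.18), and Nlrp3, the inflammasome sensor, 29 and 28 (-1.89, -2.69 to -1.08).

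Repair and growth factor genes had a median of -0.76 over 10 of 19 genes, with 5 lower and 0 higher. Tgfbi, a matrix protein induced by TGF-beta, had 403 CPM in AAA_14, 841 in AAA_7 and 38.1 in Sham members (-1.06), and the interleukin 4 receptor Il4ra 146, 319 and 0 CPM (-1.13). Matrix proteases were scarce: of 29 proteases and inhibitors 15 were measured, with a median of -0.05, and the metalloproteinase Mmp8 had 57 UMIs in AAA_14, 96.5% of them in 1 cell. Nuclear genes of oxidative phosphorylation had a median of -0.24 over 34 genes, with 0 past 2-fold in either direction, and 0.049 when levels were averaged over cells. Cell cycle genes had a median of 1.52 over 12 of 22 genes with 8 higher and 0 lower. That value came from few cells: at least 3 of 10 mitotic genes were detected in 2 of 78 AAA_14 members, 0 of 46 AAA_7 members and 1 of 8 Sham members, 85.0% of the Ube2c UMIs in AAA_14 lay in 1 cell, and the median was 0.13 when levels were averaged over cells. Lists of Fc receptors (0.12), adhesion (0.07), oxidant defence (0.16), lipid handling (0.08) and S100, annexin and galectin genes (0.18) had medians near that of all genes.

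**Figure D5:**
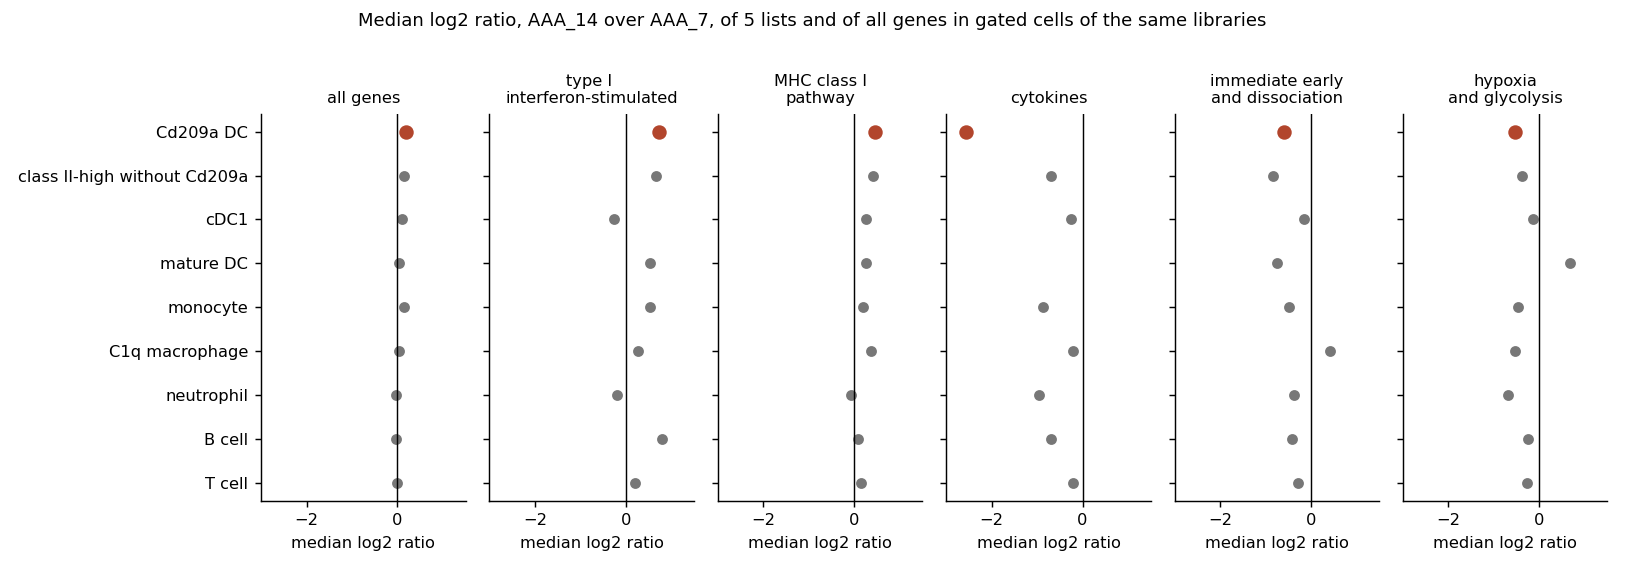
Median log2 ratio of AAA_14 over AAA_7 (x axis) of 5 gene lists and of all genes in Cd209a dendritic cells (red) and 8 other gated cell types (grey) of the same libraries. A missing point means that under 3 genes were measured. Each median is over the genes measured in that cell type, so the gene sets differ. Cytokines had 9 genes in the members, 14 in class II-high cells without Cd209a and 18 in C1q macrophages. The cytokine median of Cd209a dendritic cells (-2.56) lies lowest in its panel, while the interferon median (0.72) lies beside those of B cells (0.80) and class II-high cells without Cd209a (0.66).

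Set beside the most similar cells, those that met every condition but held no Cd209a (117 in AAA_14 and 176 in AAA_7), the members showed the same direction for most of these lists. The cytokine median was -2.56 in the members and -0.69 in the cells without Cd209a, over 9 and 14 genes, and Il1b was -2.98 and -2.37. Cdkn1a was -2.62 in the members and -2.87 in those cells. Cd83 was -1.84 in the members, -2.10 in those cells and 0.23 in type 1 dendritic cells, and Cxcr4 was -3.16, -1.53 and -1.04 in the same order. With 1 library per group these differences between cell types were not tested. Reads of near-identical genes (Hspa1a and Hspa1b, Ifi204 and Ifi205, Phf11a and Phf11b, the class I genes) may have been divided among copies, so their single values are uncertain.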

How the data were processed

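The authors deposited raw UMI counts per gene and barcode for 3 libraries, and the file headers record Cell Ranger 6.1.2 as their source. Seurat and the mm10 build also appear among the tools in the submitters' processing notes. Here the counts of members were summed per library (1032205 UMIs in AAA_14, 269839 in AAA_7, 52535 in Sham) and compared as log2 ratios of CPM with 0.5 counts added and exact conditional binomial 95% intervals. Shares have Clopper-Pearson intervals, and list medians have order-statistic 95% intervals over their genes. Genes needed 30 UMIs in AAA_14 and AAA_7 together, and at least 2-fold was the rule of size. Named genes are the 15 in each direction whose interval bound nearest 0 was farthest out (at least 30 UMIs, 50 CPM and under 20% of UMIs in 1 cell in the higher library), plus members of the gene lists. Members and lists were chosen with earlier results of these data known. Scrublet's automatic threshold called 0, 0 and 1 barcodes in AAA_14, AAA_7 and Sham and was not used, so doublets were kept; removal at an expected rate took 3, 1 and 0 members and was an alternative. Other alternatives were filters, scaling, thinning and membership limits. Code was tested on simulated data. Software was python 3.11.15, numpy 2.4.6, scipy 1.17.1, pandas 2.3.3, scanpy 1.11.5, matplotlib 3.10.9 and edgeR 4.0.16 (TMM factors only).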

Additional observations from a re-analysis of the deposited data

How the results depend on the processing

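No paired analysis was possible because each group was 1 library and no test was run. Of 648 alternative values of list medians 615 stayed within the limits set for them, as did 442 of 510 for named genes and 48 of 65 for shares and counts. Of the alternatives, 6 were chosen after seeing the data, among them the leaving out of members with Fcgr1, Ly6c2, Adgre1 or Mertk; the form of it planned earlier is not reported here. The number of genes at least 2-fold higher in AAA_14 than in AAA_7 (641) was 412 with a mitochondrial limit of 5%, 151 without members that held a monocyte or macrophage gene, 91 with 5 counts added, 2289 with 1 UMI required, 119 with 100 UMIs, 40 in thinned members, 154 at a mean of 50 CPM and 1273 without the 6-gene condition. The number of genes at least 2-fold lower in AAA_14 than in AAA_7 (254) was 1286 with 1 UMI, 112 with 100 UMIs and 52 in thinned members. Without members that held a monocyte or macrophage gene, the median of cytokines was -3.20, of type I interferon genes -0.11 and of hypoxia genes -0.26. In thinned members the median of cDC2 identity genes was 0.98, of type I interferon genes 0.26, of C-type lectins -0.50 and of cell cycle genes 0.011, and Ifit2 was -0.79. Averaged over cells, hypoxia genes were at -0.12, oxidative phosphorylation at 0.049, cell cycle at 0.13 and immediate early genes at -0.11, where TMM gave -0.79. Cell cycle genes were at 0.18 with 100 UMIs, and the 2 measured DC2A genes at 0.53 without the 6-gene condition. The share of Cd209a DCs in AAA_14 (1.48%) was 3.03% and 0.983% at mitochondrial limits of 5 and 20%. At 20%, AAA_7 kept 46 members, 1.32% of all its barcodes, so its share there was at least 1.32%. The AAA_14 share was 1.10% with C1q at 0, 2.82% without the 6-gene condition and 1.13% under the thinned rule. The thinned rule gave 0.873% for the share of Cd209a DCs in AAA_7. Thinning and the 100 UMI filter test fewer genes by construction; for the rest the cause was not tested. Depth limits Sham to levels.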
